A study of Mus musculus with 8 samples.

Results

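Dense chains are stretches of the mouse genome where many short regions of open chromatin sit close together. Open regions (peaks) on autosomes were sorted by position, and neighbours were joined when at most 5000 bases lay between the end of one and the start of the next. Chains of 8 or more peaks were kept, and a window on chromosome 8 from 126.062 to 126.148 Mb was left out. This gave 305 dense chains with 2778 peaks, out of 123493 autosomal peaks and 126871 peaks in all. The window left out held 51 peaks. The choice used positions only and no read count.

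Open chromatin marks promoters and enhancers, the stretches of DNA where transcription factors bind and nucleosomes are displaced. Enhancers often lie in groups around genes that a cell type depends on, and large groups of strong enhancers are known as super-enhancers or stretch enhancers. Within such a group single elements can respond to different factors, so a group need not open or close as a unit. Hematopoietic stem cells (HSCs) sit at the top of the blood lineages, and with age they are known to grow in number and to lean towards myeloid output.

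Accessibility was measured by ATAC-seq, in which a transposase inserts sequencing adapters into open DNA. The cells came from bone marrow of C57BL/6 mice and were sorted on the LSK CD150+ CD48- surface profile, where LSK stands for Lin- Sca-1+ Kit+. Old and young HSCs gave 4 libraries each, with no other treatment or allele in the labels and no age or sex given. Whether libraries came from separate mice is not stated, so p-values here stand for spread among libraries and may cover technical spread only. Totals ran from 4200905 to 5129684 counts per library. A dense chain held a median of 376 counts in a library, with 30 as the lowest and 2183 as the highest. The HSC label was not checked against marker genes, and no gene was assigned to a chain, because no annotation of mm9, the build of the table, was used here. Regions are therefore named by position in mm9. In bulk samples fewer cells with an open site and less opening per cell cannot be told apart.

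Old replicate 4 stood apart from its group. Across all tested chains its CPM values (counts scaled to library size, on the log2 scale) correlated with those of the other old libraries at 0.944 on average and with those of the young ones at 0.931. The other old libraries had 0.959 to 0.962 within their group and 0.882 to 0.894 with the young group. Most counts or shares of called chains and peaks that it moved are given with and without it.

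Dense chains were long but mostly closed DNA. Their median span was 20492 bases, from 6624 to 60992, and peaks covered a median of 20.8% of it. Single members had a median width of 384 bases, against 381 in chains of 5 to 7 peaks, 395 in chains of 2 to 4 and 447 for peaks standing alone. Their median strength was 4.88 CPM per peak on total counts, against 3.95 in chains of 5 to 7, 2.63 in chains of 2 to 4 and 2.16 for lone peaks. A whole dense chain had a median of 80.2 CPM. The spacing inside chains was uneven, with a median coefficient of variation of 0.631 and a lowest value of 0.177. Chain sizes thinned out steadily. There were 160 chains of 8 peaks, 66 of 9 and 35 of 10, against 290 chains of 7 peaks just below the threshold.

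**Figure D1:**
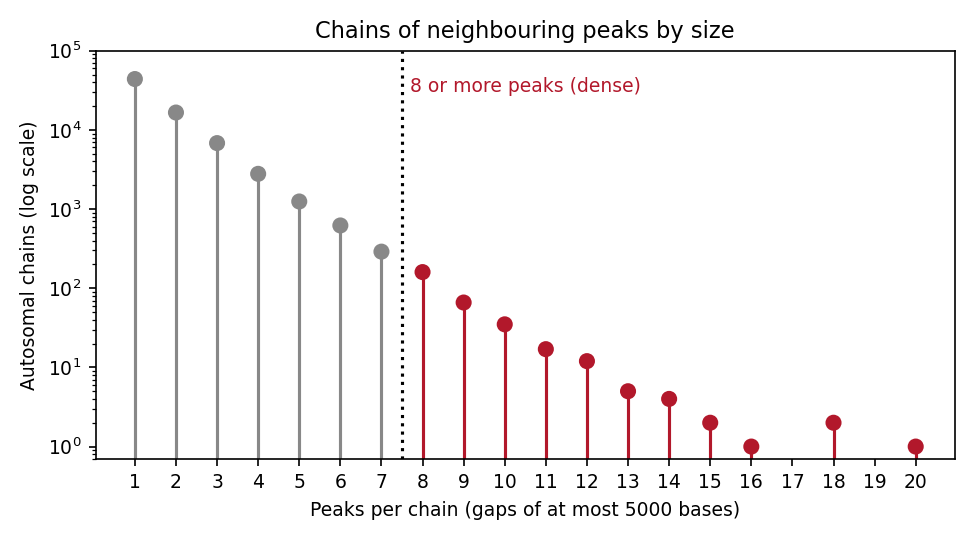
Number of autosomal chains (vertical axis, log scale) by the number of peaks they hold (horizontal axis). Red marks the 305 dense chains of 8 or more peaks and grey the shorter ones. The numbers decline without a step at the threshold, from 290 chains of 7 peaks to 160 of 8, and 1 chain reached 20 peaks.

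Dense chains were spread unequally over the chromosomes. Chromosome 11 held 35, chromosome 7 held 33, chromosome 2 held 28 and chromosome 4 held 25. On chromosomes 11 and 7 they took 4.13% and 4.11% of all peaks, and on chromosome 18 they took 0.673%.

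Taken as a whole, dense chains held nearly the same part of the reads in both groups. The share of counts in them was 2.86% in old replicate 1, 2.83% in old replicate 2, 2.83% in old replicate 3 and 2.95% in old replicate 4. In young replicates 1 to 4 it was 2.89%, 2.88%, 2.88% and 2.96%. The groups overlapped, with means of 2.87 ± 0.0588% for old and 2.90 ± 0.0387% for young HSCs (SD, n = 4 each). Old replicates 1 to 3 were the lowest of the 8 libraries, and old replicate 4 lay within the young range.

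Summed over each chain, accessibility was higher in old HSCs at 45 dense chains and lower at 51, so 96 of 305 changed (edgeR, adjusted p below 0.05 by Benjamini-Hochberg over 50517 tested chains, lone peaks included). This was 31.5%, where 22.8% of all tested chains were called in either direction, 11.1% higher and 11.7% lower. The changes were small. The median size was 0.30 on the log2 scale among called dense chains and 0.82 among all called chains. None of the 305 dense chains changed over 2-fold, while 9.18% of all tested chains did. Dense chains were also measured more precisely, with a median standard error of 0.07 on the log2 scale against 0.21 for all chains. Old and young libraries did not overlap at 80 dense chains (26.2%), with old above young at 42 and below at 38. Among all tested chains they did not overlap at 22.5% (11.1% above, 11.4% below). Without old replicate 4 it was 140 dense chains (45.9%), with 62 above and 78 below, and 36.6% of all tested chains. Leaving out any library makes overlap less likely, so the rise is not read as due to old replicate 4 alone. The counts moved when single libraries were left out, and the number called lower moved more than the number called higher. The number lower was 27 without old replicate 1, 25 without old replicate 2, 24 without old replicate 3, 32 without young replicate 3 and 32 without young replicate 4. These fits have fewer libraries, and shares over all tested chains are not given for them. A change common to all chains therefore cannot be told apart. Without old replicate 4 there were 57 higher and 74 lower. That is 43.0% of dense chains, against 31.4% of all chains tested without it. With loess offsets, which remove a trend with strength, there were 37 higher and 70 lower, so that gains made up 34.6% of called dense chains rather than 46.9%. With these offsets 35.1% of dense chains and 22.1% of all tested chains were called. Of the 96 calls, 87 were also made there.

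**Figure D2:**
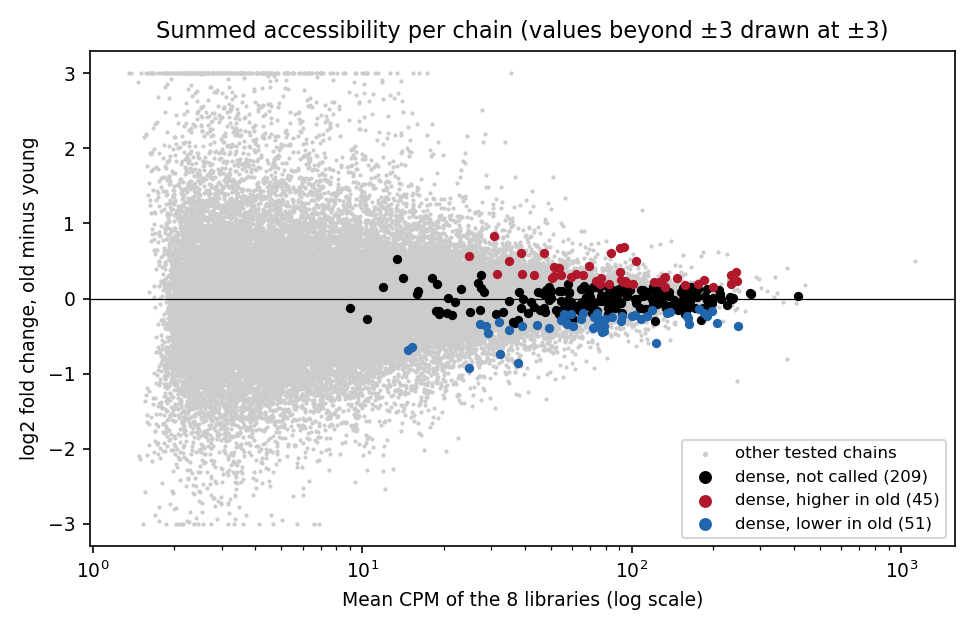
Log2 fold change of summed counts, old minus young (vertical axis), against mean CPM of the 8 libraries (horizontal axis, log scale), 1 point per tested chain. Grey points are chains outside the dense set, black dense chains were not called, red were higher and blue were lower in old HSCs. The dense chains lie at high CPM and between -0.92 and 0.83, in the narrow right part of the cloud.

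High counts make small changes easier to call, so dense chains were set beside shorter chains of like strength. Between 8.99 and 54.6 CPM 32.9% of 76 dense chains and 25.1% of 20882 shorter ones were called. Precision was not matched in this band, with median standard errors of 0.11 for dense and 0.14 for shorter chains (log2 scale). In the stronger bands these were equal for both kinds, at 0.07, 0.06 and 0.05 from weak to strong. Between 54.6 and 82.4 CPM, 35.5% of 76 dense chains and 23.0% of 2585 shorter ones were called, with median sizes of 0.16 and 0.11 on the log2 scale. Between 82.4 and 133 CPM the shares were 31.6% and 23.2%. Above 133 CPM they were 26.0% of 77 and 28.2% of 277. Without old replicate 4, in the same 4 bands from weak to strong, 42.1%, 43.4%, 43.4% and 42.9% of dense chains were called and 33.6%, 30.6%, 34.2% and 37.9% of shorter ones. Gains made up 48.0% of called dense chains and 50.1% of called shorter ones between 8.99 and 54.6 CPM, 33.3% and 63.5% between 54.6 and 82.4 CPM, 62.5% and 67.6% between 82.4 and 133 CPM, and 45% and 79.5% above. These shares were, without old replicate 4, 43.8% and 50.3%, 30.3% and 64.8%, 57.6% and 67.6%, and 42.4% and 78.1%. At the edge of the definition, 32.8% of 290 chains of 7 peaks were called, with a median size of 0.16 and 53.7% gains. Of 160 chains of 8 peaks 32.5% were called, with a median size of 0.15 and 46.2% gains. Without old replicate 4, 40.3% of chains of 7 peaks and 41.9% of chains of 8 were called, with 49.6% and 43.3% gains. These differences between kinds of chain were not tested.

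Of the dense chains more open in old HSCs, the best supported (smallest p) was a run of 8 peaks on chromosome 4 from 129834026 to 129854788. Their summed level was 107, 117, 123 and 94.5 CPM in old replicates 1 to 4 and 74.4, 66.0, 74.2 and 64.4 CPM in young replicates 1 to 4. The groups did not overlap, and old replicate 4 was the lowest old library. In edgeR this was a log2 fold change of 0.67 ± 0.08 (SE), with an adjusted p of 1.60e-05. The gain ran through the whole chain: all 6 tested peaks were fitted higher, by 0.38 to 1.02, and 4 of them were called.

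The largest gain was at 8 peaks on chromosome 5 from 38208150 to 38222730, a weaker chain. It had 45.9, 35.3, 37.4 and 39.6 CPM in old and 22.3, 21.6, 20.4 and 24.2 CPM in young replicates 1 to 4. The young libraries were tightly grouped, and every old library lay well above them. In edgeR this was a log2 fold change of 0.83 ± 0.11 (SE), with an adjusted p of 2.68e-05. Its strongest peaks differed in response. Between young and old libraries the peak from 38215567 to 38216056 went from 7.38 to 8.98 CPM and was not called, while the one from 38208150 to 38208937 more than doubled, from 4.60 to 10.8 CPM.

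On chromosome 8, a run of 11 peaks from 113211684 to 113245796 averaged 71.6 ± 11.1 CPM in young libraries and 116 ± 9.77 CPM in old ones (SD, n = 4 each), or 0.69 ± 0.09 on the log2 scale (SE), with an adjusted p of 1.22e-04 in edgeR. Old replicate 4 had 128 CPM there, the highest of the 8 libraries. The rise was uneven along the chain. The peak from 113239989 to 113240317 was close to closed in young libraries, at 0.933, 0.842, 0.50 and 0.215 CPM in replicates 1 to 4, and had 10.4, 10.3, 7.61 and 3.51 CPM in old replicates 1 to 4. Its log2 fold change was 3.61 ± 0.54, the largest among member peaks. This peak passed the count filter through the old libraries alone, so the size of the change rests on very few young counts. Of the 4 peaks that held most of the counts, the one from 113213223 to 113214361 gained most in CPM, from 11.9 to 27.9 (log2 fold change 1.22, adjusted p of 0.0300 in edgeR). The other ones, starting at 113228983, 113243218 and 113244772, had log2 fold changes of 0.17, 0.22 and 0.21 and were not called.

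On chromosome 12, a chain of 8 peaks from 16872785 to 16886505 rose from 66.2 ± 5.0 to 101 ± 9.74 CPM. Most of that gain came from 1 peak, from 16876921 to 16877945, which had 51.4, 51.7, 53.0 and 33.9 CPM in old and 17.5, 21, 14.8 and 14.2 CPM in young replicates 1 to 4. Old replicate 4 was intermediate at this peak. The strongest peak of the chain, from 16873136 to 16873861, went from 34.4 to 38.2 CPM and was not called (edgeR adjusted p = 0.298).

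The other dense chains named for their gains rose by 0.36 to 0.60 on the log2 scale. They were 8 peaks on chromosome 7 from 28106652 (85.7 ± 5.30 CPM in young, 122 ± 7.62 in old), 8 on chromosome 13 from 22106206 (58.7 ± 2.99 and 79.8 ± 4.66), 9 on chromosome 17 from 44212700 (37.5 ± 5.99 and 57.1 ± 3.07) and 14 on chromosome 11 from 117792048 (214 ± 23.0 and 275 ± 5.88). The chromosome 11 chain was among the strongest to rise. Only 3 of its 14 tested peaks were called, all higher, and the peak from 117830158 to 117831469 carried most of the gain, with 106, 109, 116 and 97.8 CPM in old against 62.0, 71.8, 71.0 and 70.4 CPM in young replicates 1 to 4.

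Of the dense chains less open in old HSCs, the best supported was a run of 8 peaks on chromosome 1 from 80649455 to 80668613. Their sum was 28, 28, 24.6 and 26.5 CPM in old and 48.1, 49.3, 51.1 and 46.3 CPM in young replicates 1 to 4. The groups were far apart, and old replicate 4 lay inside the range of the other old libraries. In edgeR this was a log2 fold change of -0.86 ± 0.09 (SE), with an adjusted p of 2.03e-06. The strongest peak, from 80661543 to 80662136, held 50.3% of the chain's counts and fell from 24.9 to 14.3 CPM. A further loss, at the peak from 80656069 to 80656596, was from 7.43 ± 1.14 to 2.10 ± 0.639 CPM, and the peak from 80658101 to 80658620 between these went from 8.0 to 7.06 CPM and was not called.

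The largest loss was at 9 weak peaks on chromosome 7 from 65977536 to 65999677. Their sum was 13.8, 17.7, 16.4 and 20.5 CPM in old and 35.4, 28.9, 34.4 and 31.4 CPM in young replicates 1 to 4, so the groups did not overlap. In edgeR this was a log2 fold change of -0.92 ± 0.13 (SE), with an adjusted p of 5.22e-05. Only 3 of the 9 peaks passed the count filter and 1 was called, so the loss shows mainly in the sum.

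A stronger chain on chromosome 4, 8 peaks from 137803240 to 137818931, fell from 148 ± 9.26 to 97.7 ± 13.4 CPM. Old replicate 4 had 117 CPM, above the other old libraries at 86.2 to 94.6 and below every young library. The loss was deepest just before the last peak. There the peak from 137813024 to 137813657 dropped from 33.9 ± 5.33 to 13 ± 4.65 CPM and its neighbour from 137815374 to 137815770 from 23.9 to 10.9 CPM. The last and strongest peak, from 137817767 to 137818931, was about level, at 35.6 CPM (young) and 34.4 CPM (old).

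On chromosome 2, 8 peaks from 32328887 to 32351468 fell from 89.2 ± 5.62 to 65.3 ± 2.93 CPM. Here the strongest peak led. From 32350045 to 32351468 it had 28, 28.4, 25.6 and 31.2 CPM in old and 49.7, 45.7, 49.3 and 52.1 CPM in young replicates 1 to 4. The other dense chains named for their losses fell by 0.32 to 0.43 on the log2 scale. They were 11 peaks on chromosome 9 from 57477059 (229 ± 13.6 CPM in young, 184 ± 15.4 in old), 8 on chromosome 4 from 132789543 (90.3 ± 5.52 and 67.2 ± 9.15), 8 on chromosome 7 from 151954925 (88.7 ± 3.61 and 69.0 ± 8.05) and 8 on chromosome 17 from 34224318 (82.8 ± 4.76 and 63.5 ± 8.52). In all of these 4 chains old replicate 4 was the old library nearest to the young group. It was the old library nearest to the young side at 40 of the 51 dense chains called lower and at 24 of the 45 called higher.

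**Figure D3:**
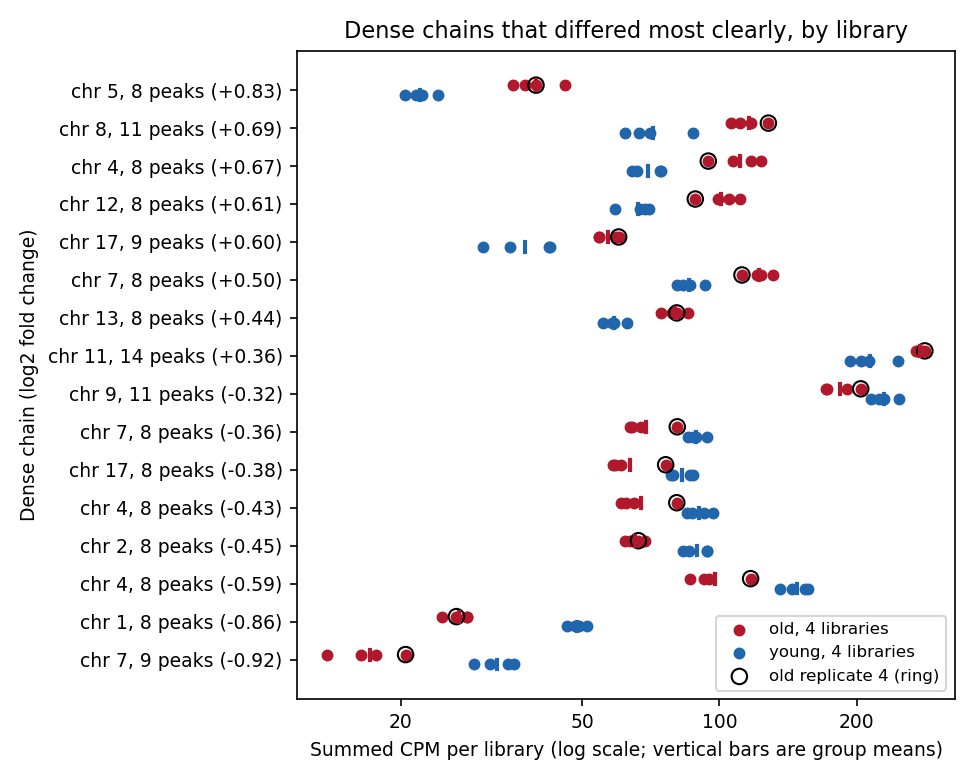
Summed CPM of 16 dense chains in each library (horizontal axis, log scale), with old libraries in red, young in blue, group means as vertical bars and old replicate 4 ringed. Chains are ordered by log2 fold change, from 0.83 at the top to -0.92 at the bottom. The colours do not overlap in any row, because this was part of the rule that picked the chains, and the ring lies nearest to the young group in most rows of chains that fell.

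Among the dense chains named for having the most peaks, 1 was called lower as a whole and the others were not called. The largest, 20 peaks on chromosome 11 from 98787259 to 98837013, had 236, 227, 222 and 248 CPM in old and 211, 213, 230 and 269 CPM in young replicates 1 to 4. The groups overlapped, and the log2 fold change was 0.02 with a 95% interval from -0.13 to 0.16. Of its 19 tested peaks 1 was called higher and 2 lower. The 18 peaks on chromosome 8 from 122994082 to 123035133 had a log2 fold change of -0.03 (interval -0.15 to 0.09). The longest chain, 18 peaks over 60992 bases on chromosome 7 from 87163247, fell by 0.23 on the log2 scale, from 205 ± 9.23 to 175 ± 13.4 CPM (edgeR adjusted p = 0.00525), with 4 peaks called lower and 0 higher.

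The 3 strongest dense chains were not called. They lay on chromosome 8 from 86706996 to 86734597 (410 ± 31.4 CPM in young, 420 ± 17.9 in old), on chromosome 1 from 174443023 to 174463044 (271 ± 12.6 and 283 ± 7.01) and on chromosome 14 from 70455697 to 70477100 (266 ± 15.4 and 282 ± 15.8). Their intervals ran from -0.07 to 0.14, from -0.03 to 0.16 and from -0.02 to 0.19 on the log2 scale. For 62 of the 305 dense chains the 95% interval lay within 0.2 of zero on the log2 scale. The interval that reached least far from zero was at 12 peaks on chromosome 8 from 124783284 to 124811112, with an estimate of 0.01 (interval -0.09 to 0.11). Its sum hid opposite changes: the strongest peak, from 124804570 to 124806136, rose from 101 to 121 CPM (edgeR adjusted p = 0.00475), and 3 weaker peaks were called lower. At 8 peaks on chromosome 8 from 87223763 and at 9 on chromosome 10 from 80011351, with estimates of 0.00 and 0.02, 0 peaks were called.

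Single member peaks were called about as often as peaks in general. Of the 2778 members 2223 passed the count filter, and 555 were too weak to test. Of those tested 204 were called higher in old HSCs and 234 lower, or 19.7%. Among all 73164 tested peaks 20.5% were called, 10% higher and 10.4% lower. Groups did not overlap at 432 members (19.4%) and at 21.1% of all tested peaks (10.5% old above young, 10.6% below). Leaving out old replicate 4, they did not overlap at 759 (33.6%) and at 35.3% of all tested peaks. Here too, fewer libraries make overlap less likely. Changes over 2-fold were found at 7.20% of tested members and at 10.4% of all tested peaks. The number of members called lower was 149 without old replicate 1, 132 without old replicate 2, 139 without old replicate 3, 151 without young replicate 4 and 383 without old replicate 4. In the last of these fits 29.4% of tested members were called, against 30.0% of all tested peaks (15.5% lower). For the other fits the share over all tested peaks is not given, so their counts are not read as particular to members. Of the 305 dense chains, with a median of 7 tested peaks each, 229 held at least 1 called peak (268 without old replicate 4). Counts of called peaks per chain, here and below, are not set beside shorter chains, which hold fewer peaks.

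Both higher and lower peaks were called in 59 dense chains, and 45 of these were not called as a sum. Of 127 dense chains with at least 2 called peaks, 68 had all of them in 1 direction. Leaving out old replicate 4, 106 dense chains held called peaks of both directions, 70 of them not called as a sum, and 89 of 195 with at least 2 called peaks had all in 1 direction. Conversely, 137 chains that were not called held a called peak. Fitted changes of tested peaks spanned a median of 1.26 on the log2 scale within a chain. Their standard deviation within a chain had a median of 0.44, where a single member peak had a median standard error of 0.23. Even in called chains a median of 75% of tested peaks were fitted on the majority side, and it was 66.7% in the others. By definition the majority side holds at least as many peaks as the other, and called chains were picked by a shifted sum. These shares alone therefore do not measure agreement. In 29 dense chains all tested peaks were fitted on the same side.

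The plainest case was a chain of 8 peaks on chromosome 5 from 114806560 to 114831322, whose sum did not pass the test (198 ± 10.4 CPM in young, 191 ± 10.6 in old; edgeR adjusted p = 0.502). Inside it the peak from 114820306 to 114820848 rose, with 20.4, 20.4, 20.3 and 14.1 CPM in old and 6.30, 10.3, 3.75 and 5.82 CPM in young replicates 1 to 4. The next peak, from 114820987 to 114821692, starts within 200 bases of it and fell from 15.5 to 6.83 CPM, a log2 fold change of -1.16 ± 0.24. The one after, at 114824423 to 114825239, dropped from 44.9 ± 6.84 to 24.8 ± 4.93 CPM. A peak near the start of the chain, from 114809389 to 114809904, rose from 8.68 to 13.1 CPM, and the strongest peak went from 55.1 to 59.8 CPM without a call.

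On chromosome 14, gains and losses in a chain of 11 peaks from 66832274 to 66862177 were split by position. The peaks starting at 66842320 and 66843856 rose, from 22.7 to 30.8 and from 4.54 to 8.29 CPM. The peaks starting at 66854299 and 66858881, further along, fell from 12.6 to 7.28 and from 3.80 to 1.44 CPM. The sum was nearly equal, at 128 ± 4.05 in young and 125 ± 1.54 CPM in old libraries. On chromosome 4, in a chain of 14 peaks from 134305227 to 134335532, a pair of gains lay between losses. Peaks starting at 134312856 and 134322806 rose by 0.63 and 0.67 on the log2 scale, and those starting at 134311983 and 134328793, on either side of them, fell by 0.67 and 1.40. A chain of 8 peaks on chromosome 13 from 24603281, named after its values were seen, was the only other one with at least 2 called peaks in each direction.

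**Figure D4:**
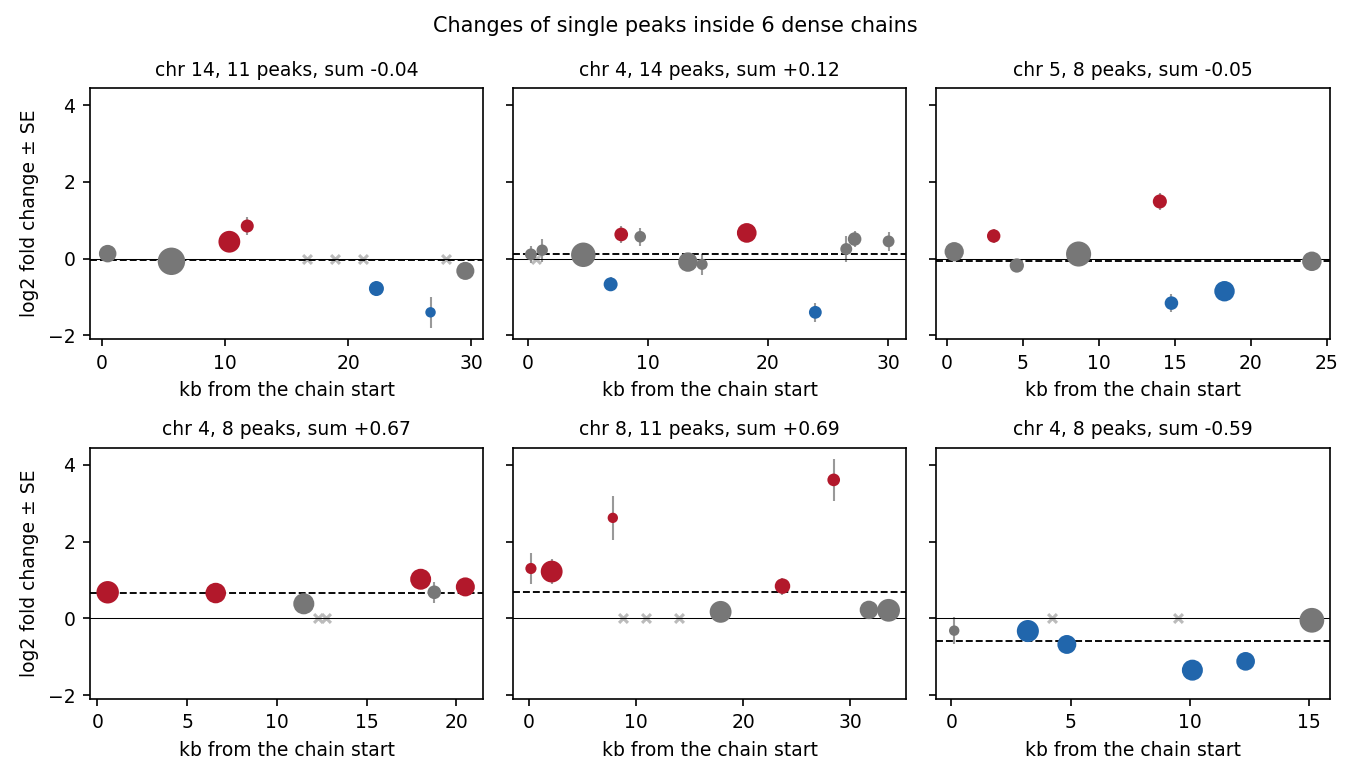
Log2 fold change, old minus young, of each tested peak (vertical axis, bars are ± SE) by distance from the start of its chain in kb (horizontal axis), in 6 dense chains. Point area grows with the peak's share of the chain's counts, red and blue mark peaks called higher and lower, grey peaks were not called, crosses mark peaks too weak to test, and the dashed line is the change of the sum. The top row shows chains with 2 called peaks in each direction and sums between -0.05 and 0.12, and the bottom row shows chains that rose or fell as a whole.

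Neighbouring called peaks were compared by direction. Of 34 pairs of neighbouring tested members that were both called and at most 1000 bases apart, 29 (85.3%) changed in the same direction. Of 55 such pairs from 1000 to 5000 bases apart it was 33 (60.0%). The numbers without old replicate 4 were 46 of 57 (80.7%) and 77 of 118 (65.3%). Such pairs share libraries and local reads, and are described without a test.

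The sum of a chain and its single peaks gave different calls at both ends. Of the 96 called dense chains 62 held at least 2 called peaks, 30 held exactly 1 and 4 held 0. The last 4, named after their values were seen, were on chromosome 5 from 137095539 (log2 fold change -0.35), chromosome 9 from 32296993 (-0.24), chromosome 11 from 77321205 (-0.15) and chromosome 15 from 103126183 (0.20). On chromosome 5 all 7 tested peaks were fitted lower, and the sum had 35.6, 39.2, 33.2 and 47.9 CPM in old against 47.8, 47.6, 55 and 49.0 CPM in young replicates 1 to 4. Old replicate 4 overlapped the young libraries there.

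Within dense chains, reads were shifted towards the strongest peak in 3 of the 4 old libraries. Peaks were ranked inside each chain by their mean over the 8 libraries. The strongest peak, with a median width of 935 bases, held a median of 36.4% of a chain's counts. Summed over the 305 chains its share was 40.7%, 41.2% and 40.8% in old replicates 1 to 3, 38.8% in old replicate 4, and 38.4%, 38.9%, 38.8% and 38.0% in young replicates 1 to 4. Old replicates 1 to 3 were above every young library, and old replicate 4 lay within the young range. Group means were 40.4 ± 1.07% for old and 38.5 ± 0.393% for young HSCs (SD, n = 4 each). Peaks of rank 2 to 4 moved the other way, from 40.7 ± 0.196% in young to 39.5 ± 0.368% in old libraries, and there the groups did not overlap. Ranks from 5 on held 20.1 ± 0.716% in old and 20.7 ± 0.247% in young libraries. These shares use no scaling between libraries. The same was seen in chains of 2 to 7 peaks, where the strongest peak held 69.4% to 69.6% in old replicates 1 to 3, 67.9% in old replicate 4 and 67.3% to 68.1% in young libraries.

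**Figure D5:**
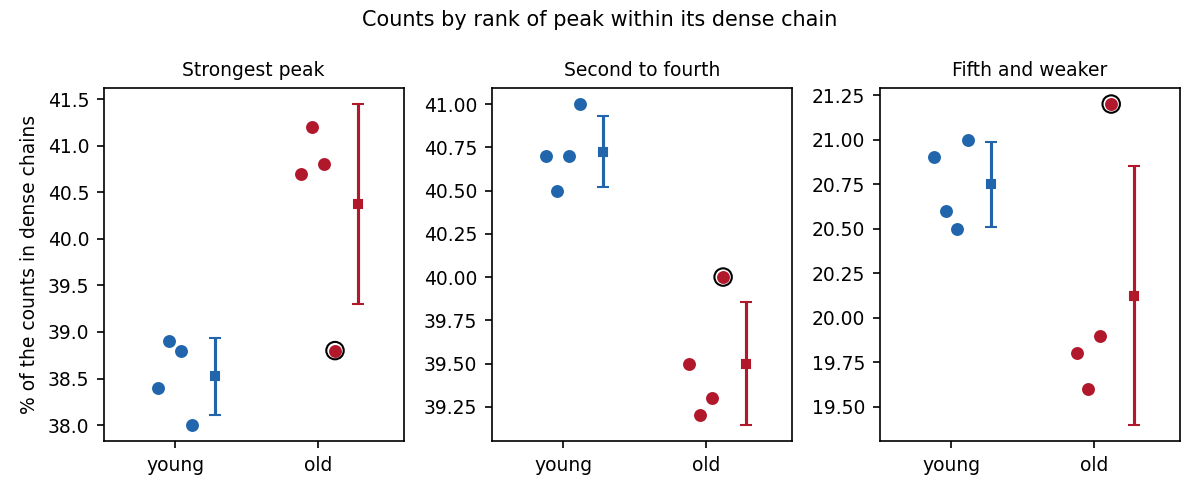
Percent of the counts in dense chains (vertical axes, each panel with its own range) that lay in the strongest peak, in peaks of rank 2 to 4 and in weaker peaks, 1 point per library, with the group mean ± SD (n = 4) as a square and old replicate 4 ringed. In the left panel old replicates 1 to 3 lie at 40.7% to 41.2%, above the young libraries at 38.0% to 38.9%, and the ring lies among the young ones.

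The calls followed the same order. Among strongest peaks 57 were called higher in old libraries and 24 lower, which makes 70.4% of the called ones gains. Of peaks of rank 2 to 4, 71 were higher and 119 lower (37.4% gains), and of weaker ones 76 and 91 (45.5% gains). In the table as a whole 49.1% of called peaks were gains. Between 19.6 and 388 CPM it was 60.2% of called members and 64.2% of other called peaks. With loess offsets gains made up 55.9%, 37.3% and 51.5% of the 3 ranks in that order, so the excess at the strongest peak shrank when a trend with strength was removed. Without old replicate 4 they made up 70.1%, 37.1% and 36.9%. Strongest peaks were called most often (26.6% of 305), though their median size of change was the smallest (0.19 on the log2 scale, against 0.27 at rank 2 to 4 and 0.35 below), with median standard errors of 0.11, 0.19 and 0.29.

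Position in the chain made little difference. Peaks at either end were called in 20.5% of 474 tested cases (48 higher, 49 lower) and inner peaks in 19.5% of 1749 (156 higher, 185 lower). Without old replicate 4 it was 29.9% of end peaks and 29.3% of inner ones, against 30.0% of all tested peaks. End peaks were wider, with a median of 458 bases against 367, and equally strong, with 4.89 and 4.85 CPM.

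Flanks of the dense chains were read from tested peaks of other chains within 50000 bases, where at least 3 were present (293 dense chains). Around 42 dense chains called higher the median of the flank medians was 0.02 on the log2 scale, and around 49 called lower it was -0.10. Of 372 flank peaks around the risen chains 11% were called higher and 9.95% lower. Of 412 around the fallen chains 7.04% were called higher and 11.2% lower. Over all tested peaks the shares were 10% higher and 10.4% lower. Flanks of risen chains were near these shares, and around fallen chains fewer flank peaks were called higher. The flank median was above zero for 29 of the 42 risen chains and below zero for 34 of the 49 fallen ones. Without old replicate 4 the flank shares were 15.4% higher and 14.7% lower around 53 risen chains and 11.4% and 19.3% around 72 fallen chains, against 14.5% and 15.5% of all tested peaks. Across the 293 chains the change of the chain and of its flank had a Pearson correlation of 0.23 (0.18 without old replicate 4), over regions that share the same 8 libraries. Single flanks varied. Around the chromosome 12 chain from 16872785, 8 tested flank peaks had a median of 0.75, with 3 called higher and 1 lower. Around the chromosome 13 chain from 22106206, which rose, 11 flank peaks had a median of -0.12, with 1 called higher and 4 lower.

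Few peaks, in dense chains or in the table as a whole, went between near closed and open. Peaks with a mean under 1 CPM in young and at least 5 CPM in old libraries numbered 2 of 2223 tested members. Among all 73164 tested peaks there were 153. Beside the chromosome 8 peak from 113239989, this was a peak on chromosome 16 from 95686259 to 95686597, named after its values were seen, with 7.38, 5.89, 7.38 and 4.55 CPM in old and 1.17, 0.421, 1.0 and 0.215 CPM in young replicates 1 to 4. The 2 members passed the count filter through the old libraries alone. The reverse, under 1 CPM in old and at least 5 CPM in young libraries, was found at 0 members and at 41 tested peaks.

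Members of 1800 bases or more numbered 17, with a median of 78.3 CPM. Of these 5 (29.4%) were called, against 20.5% of all tested peaks and 26.0% of 1064 other tested peaks of that width. Without old replicate 4 the order was reversed, with 6 (35.3%) called against 38.2% of the other wide peaks. The share of all tested peaks was then 30.0%. The 5 members called with all libraries are named here after their values were seen. The peak on chromosome 8 from 122905921 to 122907993 rose most, from 17.5 ± 1.56 to 34.8 ± 2.97 CPM. Peaks on chromosome 12 from 88164754 (88.6 ± 4.05 CPM in young, 115 ± 5.59 in old), chromosome 3 from 103593733 (58.4 ± 3.19 and 69.8 ± 2.23) and chromosome 13 from 42146441 (87.7 ± 7.59 and 101 ± 3.59) also rose. On chromosome 7 the one from 106683249 fell from 67.4 ± 5.06 to 54.2 ± 3.21 CPM.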

How the data were processed

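The deposited table holds whole-number counts per peak, not normalized, for 8 libraries over 1 shared peak set, and column names matched the sample titles. Per the submitters' processing notes, which give no versions, the tools were Bowtie2, MACS2, Picard, SAMtools, FastQC and Trim Galore, with genome build mm9. Not given in the sources used here are the merging of peaks, the counting program and any shift of read ends. Peaks that a caller split or merged differently would change which chains count as dense.

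Counts were summed over each chain, with every other peak of the table also in a chain of its own or a longer one (74871 chains, all chromosomes). Chains and, separately, single peaks were kept with filterByExpr by group (minimum count 10, minimum total 15), scaled with TMM and compared with edgeR 4.0.16 (glmQLFit, robust, glmQLFTest) with a term for group alone (R 4.3.3). The chains kept held 97.4% of counts. Adjusted p-values (Benjamini-Hochberg) cover all tested chains or peaks. CPM values were computed here with the same scaling, except peak strengths "on total counts". Standard errors come from the fitted weights and the quasi-dispersion, and 95% intervals from the matching t distribution. The biological coefficient of variation was 0.0989 for chains and 0.114 for peaks.

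Chains named in the text are dense chains chosen by rule: in each direction the 8 called with the smallest p whose groups did not overlap and the 2 with the largest change, and the 3 with the most peaks, with the highest CPM, with the interval nearest to 0, and with most called peaks in both directions. In chains of the first, the second and the last kind the peak with the smallest p was named. Other peaks of these chains, and the rank shares, were chosen after the data were seen. Members and rules were chosen with earlier results of these data known. Alternatives are other scalings (DESeq2 1.42.0 size factors, total counts, loess offsets, TMM factors of single peaks), count filters and tests (DESeq2, limma 3.58.1 voom), other chain definitions, only tested peaks in the sums, autosomes alone, adjusted p below 0.01, a replicate block and each library left out. Values without old replicate 4 for strength bands, overlap, peaks of both directions, neighbours and flanks were added after the data were seen. No sequence is shown, since no mm9 genome was used.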

Additional observations from a re-analysis of the deposited data

Results flagged for a closer look

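Values of the 4 libraries of a group were screened for a lone distant one, in 110 such groups. There were 8, while about 1 in 20, or 5.50, would be found by chance. Old replicate 4 was the distant library in 5. It correlated with its group at 0.944 on average, the others at 0.959 to 0.962. It had 76.2 CPM at the chromosome 17 chain from 34224318 (the others 58.3 to 60.7) and 181 CPM at the chromosome 8 chain from 122994082 (the others 153 to 157). It was low at the chromosome 12 peak from 16876921, with 33.9 CPM against 51.4 to 53.0, and at the chromosome 5 peak from 114820306, with 14.1 CPM against 20.3 to 20.4. Young replicate 2 was low at the chromosome 5 chain from 114806560, with 183 CPM against 202 to 205, and at its peak from 114824423, with 34.7 CPM against 47.3 to 49.3. Young replicate 1 was low at the chromosome 11 peak from 117830158, with 62.0 CPM against 70.4 to 71.8.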

How the results depend on the processing

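The 28 named dense chains kept their direction or stayed uncalled in every alternative in which they were refitted. All alternatives rest on the same counts, many of these chains were picked for a small p, and a kept direction does not mean a kept call. Counts of calls moved by over 1.5 times as follows, chains higher and lower first, then peaks. At an adjusted p below 0.01 there were 25 and 19, then 90 and 96. With 6 or more peaks per chain there were 159 and 202, then 568 and 680, and with 12 or more 5 and 4, then 26 and 30. With gaps up to 2500 bases there were 1 and 2, then 4 and 3, and up to 10000 bases 295 and 489, then 1834 and 2422, since these change how many chains and peaks are counted. Peaks called were 71 and 108 with a mean count of at least 50, which leaves fewer peaks, and 126 and 147 with DESeq2's test; the cause was not tested. The share of counts, old minus young, was -0.03616 percentage points, -0.09817 with 6 or more peaks and -0.6307 with gaps up to 10000 bases. With each library left out in turn the counts were 35 to 57 chains higher, 24 to 74 lower, 147 to 281 peaks higher and 132 to 383 lower, and the share -0.0648 to -0.01707. With the replicate number as a block 49 chains were higher and 58 lower, with 222 and 265 peaks. Same-numbered libraries correlated by -0.00388 to 0.183 after group means were removed, and the numbers were not taken as pairs. Without a count filter 51 chains were higher and 37 lower. Shares over all chains or peaks are not given beside these counts. A change common to the whole table therefore cannot be told apart here. Depth limited 555 member peaks, which were too weak to test.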
